A study of Drosophila melanogaster with 9 samples.

Results

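Homeobox genes encode transcription factors that bind DNA through a homeodomain, and 50 of them outside the 8 HOX genes, the POU domain genes, the eye determination genes and the head gap genes are described here. They were taken by gene symbol from a list, and all 50 were found among the 14797 genes of the expression matrix. This list and the other gene lists below were chosen with earlier results of these data known. Their shares beside those of all genes are therefore descriptions only. The cells are Kc167, an embryonic Drosophila line with features of hemocytes, the blood cells of the fly. They received dsRNA, 15 µg at a time, against ph, E(z) and CtBP (ph+E(z)+CtBP RNAi), against ph and E(z) (ph+E(z) RNAi), or a control dsRNA (Control RNAi), and were harvested on day 7, with 3 libraries in each group. The sources used here name no target for the control dsRNA, and the labels do not say whether replicates were separate cultures, so each p measures only the spread between these libraries.

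Homeodomain factors assign segment, compartment and cell identity in the fly embryo and imaginal discs, and many of their genes are textbook targets of Polycomb silencing. The protein made from ph belongs to the Polycomb complex that compacts chromatin, E(z) is the enzyme that sets the methyl mark on histone H3 which that complex recognises, and CtBP is known as a corepressor. The study was about an activating role of CtBP at HOX genes, and the homeobox genes below were read out in the same libraries.

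Levels are FPKM, fragments per kilobase of transcript scaled to mapped fragments, so they can be compared between genes. FPKM summed to 725406 to 908290 per library, and 8219 to 8632 genes reached 0.5 FPKM. E(z) lay at 8.29 to 12.1 FPKM in the 6 libraries treated against it and at 31.2 to 43.4 FPKM in the control libraries, and CtBP lay at 41.8 to 65.8 FPKM with ph+E(z)+CtBP RNAi against 189 to 221 FPKM in the other 6 libraries. Of 11 hemocyte markers 10 reached 0.5 FPKM in every library, among them srp, which encodes a GATA factor, while eater, a phagocytosis receptor gene, lay at 0.0991 FPKM in Control RNAi replicate 1. Hml, which encodes hemolectin, lay at 39.9 to 76.2 FPKM with ph+E(z)+CtBP RNAi, 220 to 312 FPKM with ph+E(z) RNAi, and 8.06, 173 and 164 FPKM in control replicates 1, 2 and 3. The library labelled Control RNAi replicate 1 stood apart: the SD of its log2 deviations from the remaining control libraries was 1.03, where no other library deviated from its own group by more than 0.695. Ribosomal protein genes held 39.6% of its FPKM, where they held 26.4% to 30.8% in the other libraries. This library also had the highest FPKM sum and the fewest genes at 0.5 FPKM. In that library ph-p, one of the tandem ph copies, lay at 4.64 FPKM, below the 7.15 to 10.3 FPKM of the 6 libraries treated against it and against its label, while the other control libraries held 18.9 and 18.1 FPKM. The second ph copy, ph-d, overlapped between the groups, at 3.73 to 4.99 FPKM with ph+E(z)+CtBP RNAi and 4.21 to 4.91 FPKM with ph+E(z) RNAi, against 1.26, 5.72 and 4.87 FPKM in the control libraries.

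Most of these homeobox genes stayed silent under all 3 treatments. Of the 50, 32 (64.0%) were below 0.5 FPKM in each of the 9 libraries, the level called silent here, where 35.0% of all genes in the matrix were. The genes ftz, zen2, lbl, ind, scro and hbn were listed at 0 in every library. Because all 37 mitochondrial genes were also listed at 0, such an entry is not read as absence of the RNA. A further 5 genes (inv, eve, Dll, ro and tin) reached 0.5 FPKM in 1 or 2 libraries, with a maximum of 0.947 FPKM for eve. That left 13 genes that reached 0.5 FPKM in at least 3 libraries and entered the main test.

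**Figure D1:**
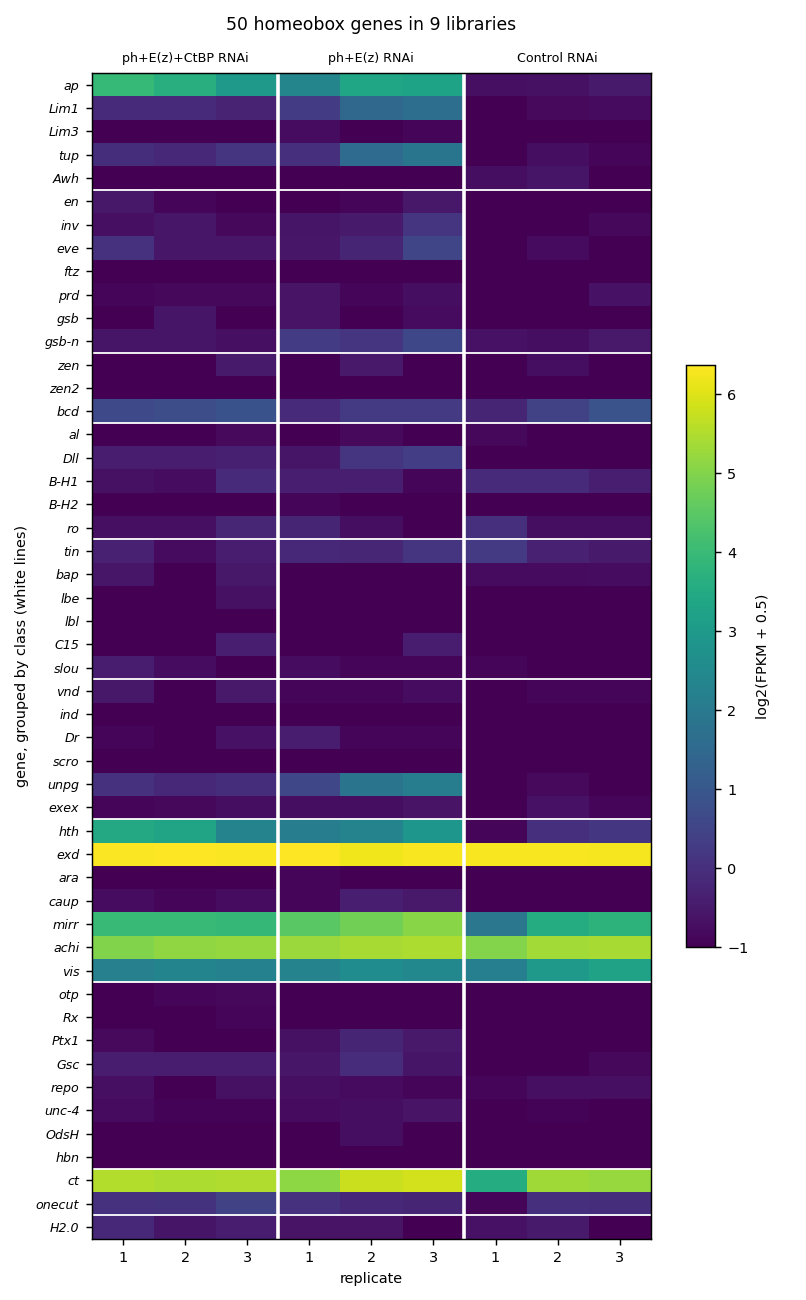
Level of each of the 50 homeobox genes (rows, grouped by class) in the 9 libraries (columns), as log2(FPKM + 0.5). Most rows stay near the lowest colour in every column, exd, achi, ct, mirr and vis are present in all 3 groups, and ap, hth, unpg, Lim1, tup and gsb-n are higher in the ph+E(z) RNAi columns than in the control columns.

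The silent genes came from nearly every class. All 8 paired-like genes (otp, Rx, Ptx1, Gsc, repo, unc-4, OdsH and hbn) were silent, with a maximum of 0.459 FPKM for Gsc, the fly goosecoid gene. Of the 6 genes of the homeobox cluster at 93D/E, which pattern mesoderm and muscle, none was testable: tin, the heart determinant tinman, reached 0.688 FPKM in 1 control library, and bap, lbe, lbl, C15 and slou were silent at 0.261 FPKM or less. Of the nervous system patterning genes, vnd, ind, Dr, scro and exex were silent at 0.236 FPKM or less, and only unpg was testable. Among the segmentation genes, en, ftz, prd and gsb were silent at 0.197 FPKM or less, inv and eve stayed under the filter, and gsb-n was testable. The LIM homeodomain genes Lim3 and Awh had highest values of 0.0949 and 0.171 FPKM. Of the appendage and sense organ genes, al, B-H1 and B-H2 were silent at 0.443 FPKM or less. The gene repo, which directs glial fate, did not exceed 0.126 FPKM, and H2.0 did not exceed 0.382 FPKM.

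The number of these genes at 0.5 FPKM or more was 11, 9 and 10 in the ph+E(z)+CtBP RNAi libraries, 12, 13 and 16 in the ph+E(z) RNAi libraries, and 7 in each of the 3 control libraries. The groups did not overlap in either contrast with control, and each ph+E(z)+CtBP library lay below each ph+E(z) library. Over all genes these counts overlapped between the groups. They were 8502 to 8632 with ph+E(z)+CtBP RNAi, 8434 to 8597 with ph+E(z) RNAi and 8219 to 8557 in the control libraries.

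The comparison of ph+E(z) RNAi with control RNAi shows which of these genes moved when ph and E(z) were targeted together. Of the 13 tested homeobox genes 6 rose (ap, hth, unpg, Lim1, tup and gsb-n), 0 fell and 7 did not pass, by limma at a Benjamini-Hochberg adjusted p under 0.05. Among all 8853 tested genes, 2.58% were called higher and 1.34% lower in this comparison. At an unadjusted p under 0.05, 7 of the 13 were higher and 0 lower. The 3 treated libraries lay above all 3 control libraries in 7 of the 13 and below them in 0, where 13.8% and 12.9% of all tested genes did. The median log2 change of the 13 was 0.95, beside -0.00 over all tested genes. The 5 genes ap, unpg, Lim1, tup and gsb-n were under 0.5 FPKM in all 3 control libraries and entered the test only through treated libraries, so they could not have been called lower. The gene hth reached 0.5 FPKM in only 1 control library, so it too needed treated libraries to pass the filter. The count and median over the 13 therefore carry no further weight.

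The largest change was that of ap, which encodes the LIM homeodomain protein Apterous, the selector of dorsal identity in the wing. It measured 4.58, 9.86 and 9.27 FPKM in ph+E(z) RNAi replicates 1, 2 and 3, against 0.122, 0.131 and 0.223 FPKM in the control libraries. The treated libraries all lay far above the control libraries, and ap rose by 3.61 ± 0.33 on the log2(FPKM + 0.5) scale (SE, limma adjusted p = 0.000974). The gene lies on 2R at 5706202 to 5727525 (dm6, minus strand). Its neighbour vlc, 763 bases away, differed by 0.50 and did not pass (limma adjusted p = 0.298).

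The gene hth encodes Homothorax, a TALE homeodomain protein that carries Extradenticle into the nucleus. It lay at 3.87, 4.45 and 6.81 FPKM with ph+E(z) RNAi and at 0.0418, 0.489 and 0.617 FPKM in control cells. The groups were well apart, with the lowest control value in the library labelled Control RNAi replicate 1, and hth rose by 2.68 ± 0.39 (limma adjusted p = 0.00858). It spans 132008 bases of 3R at 10507561 to 10639568. An antisense RNA gene, asRNA:CR44018, lies within that span, and its reads cannot be told apart from those of hth where strand is not recorded. The calls of ap and hth held under all 20 alternative settings.

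The gene unpg, named unplugged and active in neural and tracheal precursors, lay at 0.990, 3.09 and 3.75 FPKM with ph+E(z) RNAi, against 0, 0.0726 and 0 FPKM in control cells. It rose by 2.44 ± 0.37 (limma adjusted p = 0.00979), a call that ended when ph+E(z) replicate 2 was left out (0.0598). The LIM homeodomain gene Lim1, which acts in leg and antennal patterning, lay at 0.745, 2.31 and 2.65 FPKM with ph+E(z) RNAi, against 0, 0.0747 and 0.0756 FPKM in control cells. Lim1 rose by 2.02 ± 0.34 (limma adjusted p = 0.0168). Its call was lost without Control RNAi replicate 2 (0.0527) or 3 (0.0562), without ph+E(z) replicate 2 (0.0861) or 3 (0.0755), and in a fit of those 2 groups alone (0.061). The genes lie on 2R at 9195205 to 9199870 (unpg, plus strand) and on X at 8756539 to 8805804 (Lim1, minus strand). For both genes ph+E(z) replicate 1 was the lowest of the treated libraries and still above all control libraries.

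The gene tup encodes Tailup, the fly Islet protein, which acts in motor neurons, heart and amnioserosa. It lay at 0.520, 2.51 and 3.12 FPKM with ph+E(z) RNAi, against 0, 0.106 and 0.0358 FPKM in control cells, and rose by 2.03 ± 0.43 (limma adjusted p = 0.0411). The tup call ended on leaving out any single library except ph+E(z) replicate 1 (0.0589 to 0.175). It was also lost with a pseudocount of 1 (0.0555), with no filter (0.0508), with quantile normalization (0.0516) and in the fit of 2 groups (0.118). The paired-class gene gsb-n, which acts in the neuroectoderm and nerve cord, stayed low at 0.721, 0.589 and 1.02 FPKM with ph+E(z) RNAi, against 0.148, 0.106 and 0.214 FPKM in control cells. It rose by 0.95 ± 0.21 (limma adjusted p = 0.0431), and that call was lost without each of the 9 libraries in turn (0.0515 to 0.177), with a pseudocount of 0.1 (0.0576), with quantile normalization (0.11) and in the fit of 2 groups (0.101). The gene Nplp1 lies 6 bases from gsb-n, and its level was 0.305, 0.295 and 0.236 FPKM with ph+E(z) RNAi, against 0.598, 0.349 and 0.294 FPKM in control cells. In dm6, tup lies on 2L at 18859507 to 18881261 and gsb-n on 2R at 25040383 to 25052331, both on the minus strand. Since the pseudocount shrinks the change of low genes, a pseudocount of 0.1 gave 4.31 for unpg, 3.61 for Lim1, 3.62 for tup and 1.77 for gsb-n.

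**Figure D2:**
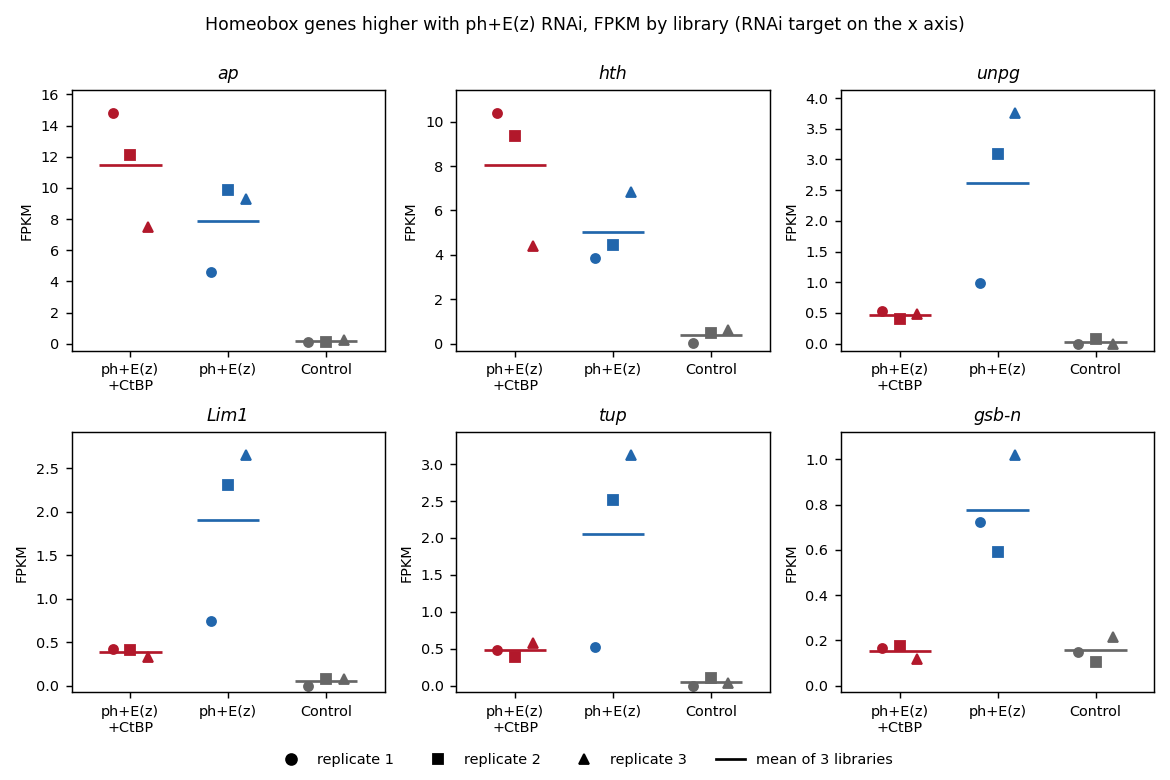
FPKM of the 6 homeobox genes that rose with ph+E(z) RNAi, by library (points, shaped by replicate) with the mean of 3 libraries (line), each panel on its own linear scale. All ph+E(z) RNAi points lie above all control points, while with ph+E(z)+CtBP RNAi ap and hth stay high and unpg, Lim1, tup and gsb-n lie at 0.581 FPKM or less.

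Beside the 6 called genes, mirr differed by 1.70 ± 0.43 without passing the test (limma adjusted p = 0.0722). This Iroquois gene, which acts in eye and ovary patterning, was present in all cells. It lay at 22.0, 27.4 and 33.3 FPKM with ph+E(z) RNAi, against 3.32, 11.3 and 13.2 FPKM in control cells, so the groups did not overlap and the low control value was in the library labelled Control RNAi replicate 1. Without that library the difference of mirr was 1.12 ± 0.16 and passed (limma adjusted p = 0.00874), and it also passed with quantile normalization (0.038). It passed too in a fit with array weights, which give each library its own weight (limma adjusted p = 0.000197). That setting called 1487 genes higher and 1437 lower among all 8853.

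The other tested genes did not pass in the main test. The gene ct encodes Cut, which sets external sense organ identity, and lay at 34.2, 55.2 and 58.1 FPKM with ph+E(z) RNAi, against 11.3, 40.0 and 37.2 FPKM in control cells. The groups overlapped, and the difference was 0.89 ± 0.44 (limma adjusted p = 0.342). The lowest of the 9 values of ct was again in Control RNAi replicate 1, and without it the difference was 0.31. With array weights the difference was 0.51 ± 0.12 and passed (limma adjusted p = 0.0138). The gene exd, whose protein is the HOX cofactor Extradenticle, was the highest of the 50 genes, at 74.3 to 82.7 FPKM with ph+E(z) RNAi and 77.6 to 79.3 FPKM in control cells, and differed by -0.00 ± 0.09 (limma adjusted p = 0.992).

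The TALE genes achi and vis, a duplicated pair needed in spermatogenesis, were both present. Between ph+E(z) and control RNAi achi differed by 0.11 ± 0.14 (limma adjusted p = 0.653), with 37.8 to 43.7 FPKM in ph+E(z) RNAi cells against 31.9 to 42.0 FPKM in control cells. For vis the values were 4.46, 5.51 and 4.91 FPKM with ph+E(z) RNAi and 4.03, 7.50 and 8.96 FPKM in control cells, a difference of -0.36 ± 0.26 (limma adjusted p = 0.475). Without Control RNAi replicate 1 it was -0.68 ± 0.15 and vis was called lower (limma adjusted p = 0.0349). With array weights vis was also called lower, at -0.60 ± 0.11 (limma adjusted p = 0.00371). Reads of these near-identical copies may be split between them, so both values are uncertain. The maternal anterior determinant bcd, at 0.342 to 1.34 FPKM, and the neuronal CUT gene onecut, at 0.0314 to 0.884 FPKM over the 9 libraries, did not pass in any comparison (limma adjusted p of 0.417 to 0.683 for bcd and 0.28 to 0.727 for onecut).

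**Figure D3:**
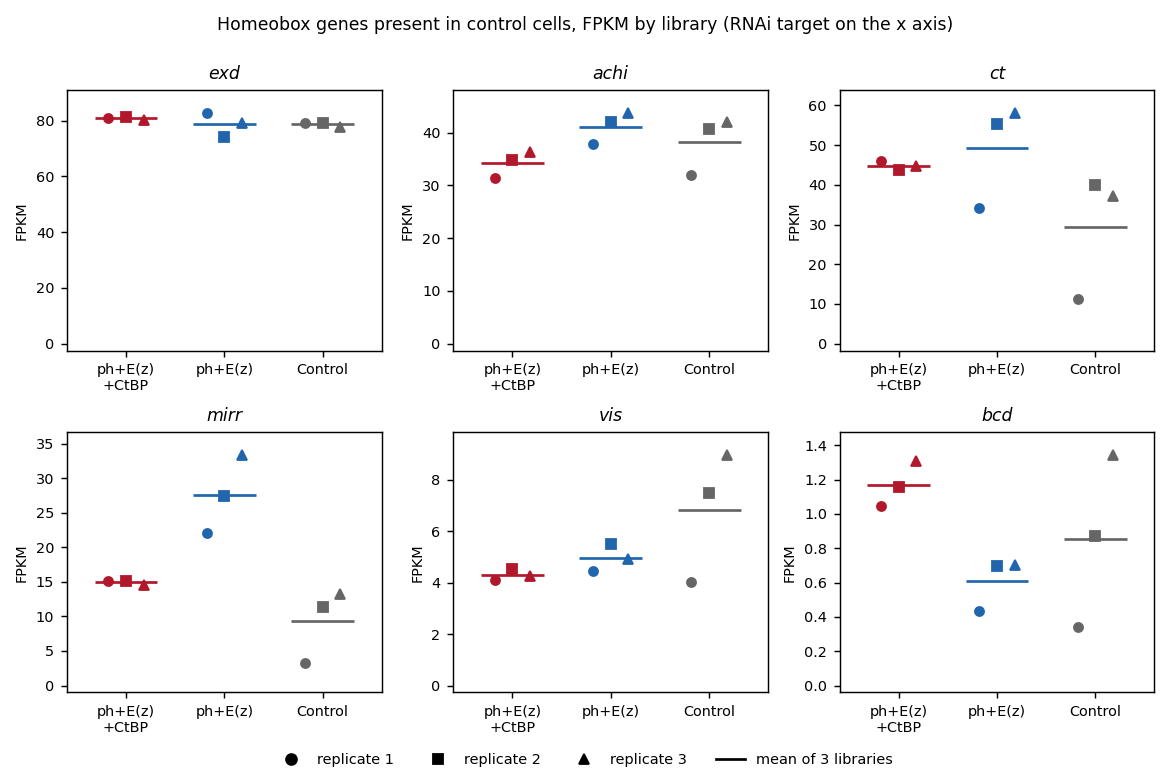
FPKM of 6 tested homeobox genes outside the 6 that rose, by library (points, shaped by replicate) with the mean of 3 libraries (line), each panel on its own linear scale from 0. The levels of exd are flat across groups, and Control RNAi replicate 1 holds the lowest of the 9 values of ct, mirr, vis and bcd.

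Small differences also appeared among the 37 genes under the filter. In 10 of the 37 (27.0%) all 3 ph+E(z) RNAi libraries lay above all 3 control libraries, and in 1, bap, they lay below. Over all 5944 genes under the filter these shares were 3.38% and 1.14%, and over the 3300 of them that were above 0 in at least 1 library 6.09% and 2.06%. Dll, the distal limb selector, lay at 0.173, 0.594 and 0.759 FPKM with ph+E(z) RNAi and was listed at 0 in all control libraries. The pair-rule gene eve lay at 0.178, 0.344 and 0.947 FPKM with ph+E(z) RNAi, against 0, 0.0849 and 0 FPKM in control cells. The others were inv, caup, Ptx1, Gsc, slou, vnd, Dr and unc-4, all at 0.597 FPKM or less. Some of these gaps were minute. The lowest ph+E(z) and highest control values were 0.0473 and 0.0472 FPKM for vnd, and 0.0422 and 0.0390 FPKM for slou. In dm6, eve, Ptx1 and Gsc overlap non-coding RNA genes and vnd overlaps the protein-coding gene spdi. Reads of overlapping genes may not be assigned cleanly. In the fit with no filter, which took in the 31 of these genes above 0 in at least 1 library, limma called 0 of them higher and 0 lower with ph+E(z) RNAi (lowest adjusted p = 0.0584), with 7 higher and 0 lower at an unadjusted p under 0.05. It also called 0 of them in the other 2 comparisons, with 2 at an unadjusted p under 0.05 in each, and no fold change is given at such levels. Under ph+E(z)+CtBP RNAi 6 of the 37 (inv, eve, Dll, caup, Gsc and unc-4) lay above all control libraries and 0 below, where the shares were 4.29% and 1.13% of genes under the filter, and 7.73% and 2.03% of those above 0 in at least 1 library.

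Setting ph+E(z)+CtBP against ph+E(z) RNAi compares libraries with and without CtBP dsRNA beside that against ph and E(z). No group received CtBP dsRNA alone. This comparison shares the ph+E(z) libraries with the comparison above. Of the 13 tested homeobox genes 1 fell (gsb-n), 0 rose and 12 did not pass by limma, where 1.77% of all tested genes were called lower and 1.94% higher. At an unadjusted p under 0.05, 4 were lower and 0 higher. The groups did not overlap in 5 lower genes (Lim1, gsb-n, unpg, mirr and achi) and 2 higher ones (bcd and onecut), where 16.0% and 15.1% of all tested genes were so placed. The genes gsb-n and Lim1 reached 0.5 FPKM only in the 3 ph+E(z) libraries, and unpg and tup in those and 1 ph+E(z)+CtBP library. The filter thus favoured a fall in these genes, and the counts over the 13 carry no further weight. In gsb-n the values were 0.164, 0.174 and 0.116 FPKM with ph+E(z)+CtBP RNAi, below all ph+E(z) libraries and overlapping the control libraries. The fall was by 0.96 ± 0.21 (limma adjusted p = 0.0431), a call that ended on leaving out any single library except Control RNAi replicate 1 (0.0765 to 0.179), with a pseudocount of 0.1 (0.0603), with quantile normalization (0.0517) and in the fit of 2 groups (0.059).

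The genes unpg, Lim1 and tup were lower on average when CtBP was targeted as well, without passing the test. With ph+E(z)+CtBP RNAi unpg lay at 0.527, 0.399 and 0.477 FPKM, below the 0.990 to 3.75 FPKM of the ph+E(z) libraries, a difference of -1.55 ± 0.37 (limma adjusted p = 0.0603). Lim1 lay at 0.426, 0.411 and 0.327 FPKM, below the 0.745 to 2.65 FPKM of the ph+E(z) libraries, a difference of -1.33 ± 0.34 (limma adjusted p = 0.0802). For tup, at 0.477, 0.389 and 0.581 FPKM with ph+E(z)+CtBP RNAi, the groups overlapped through the 0.520 FPKM of ph+E(z) replicate 1, and the difference was -1.19 ± 0.43 (limma adjusted p = 0.236). In all 3 genes ph+E(z) replicates 2 and 3 held the high values, and without ph+E(z) replicate 1 the differences passed, at -2.02 for unpg (0.00433), -1.75 for Lim1 (0.00747) and -1.75 for tup (0.00951). Leaving out that library takes away the lowest ph+E(z) value of each gene, which widens the difference by itself. Without Control RNAi replicate 1, unpg (0.0356) and Lim1 (0.0462) passed at the same size, since that library enters only the estimate of spread. All 3 passed with array weights, a setting that called 1169 genes higher and 1227 lower. Of the 19 alternative settings, unpg and Lim1 passed in 3 each and tup in 2. Their limma adjusted p reached 0.241 for unpg, 0.298 for Lim1 and 0.637 for tup in the others.

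For ap and hth the groups overlapped. With ph+E(z)+CtBP RNAi ap lay at 14.8, 12.1 and 7.46 FPKM, overlapping the 4.58 to 9.86 FPKM of the ph+E(z) libraries, with a difference of 0.53 ± 0.33 (limma adjusted p = 0.565). In the same libraries hth lay at 10.4, 9.36 and 4.38 FPKM, overlapping the 3.87 to 6.81 FPKM of the ph+E(z) libraries, with a difference of 0.58 ± 0.39 (limma adjusted p = 0.615). Only with array weights did hth pass, at 0.79 ± 0.24 (limma adjusted p = 0.0403). Replicate 3 of the ph+E(z)+CtBP group was the lowest of its group for both genes, and it was also the library with the most CtBP left, 65.8 FPKM against 49.0 and 41.8 FPKM. Whether the remaining CtBP had a part in those values was not tested.

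Of the genes present in control cells, mirr lay at 15.1, 15.1 and 14.6 FPKM with ph+E(z)+CtBP RNAi, below the 22.0 to 33.3 FPKM of the ph+E(z) libraries, a difference of -0.85 ± 0.43 (limma adjusted p = 0.439). The shared spread of mirr includes the low control library. In the fit of the 2 groups alone the difference was -0.85 ± 0.15 and passed (limma adjusted p = 0.0201), as it did without Control RNAi replicate 1 (0.00971). The values of ct were 46.0, 43.8 and 44.8 FPKM with ph+E(z)+CtBP RNAi and differed by -0.09 ± 0.44 from the ph+E(z) libraries (limma adjusted p = 0.98). For exd the difference was 0.04 ± 0.09 (limma adjusted p = 0.933). For achi it was -0.26 ± 0.14 (limma adjusted p = 0.445), with 31.4 to 36.4 FPKM below the 37.8 to 43.7 FPKM of the ph+E(z) libraries, and for vis -0.18 ± 0.26 (limma adjusted p = 0.874). With array weights achi (-0.34, limma adjusted p = 0.00609) and mirr (-0.91, limma adjusted p = 0.00209) passed. Among the genes under the filter, tin, Ptx1 and unc-4 lay lower and H2.0 higher without overlap, 3 and 1 of 37, where 1.3% and 3.5% of genes under the filter did, and 2.33% and 6.3% of those above 0 in at least 1 library.

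**Figure D4:**
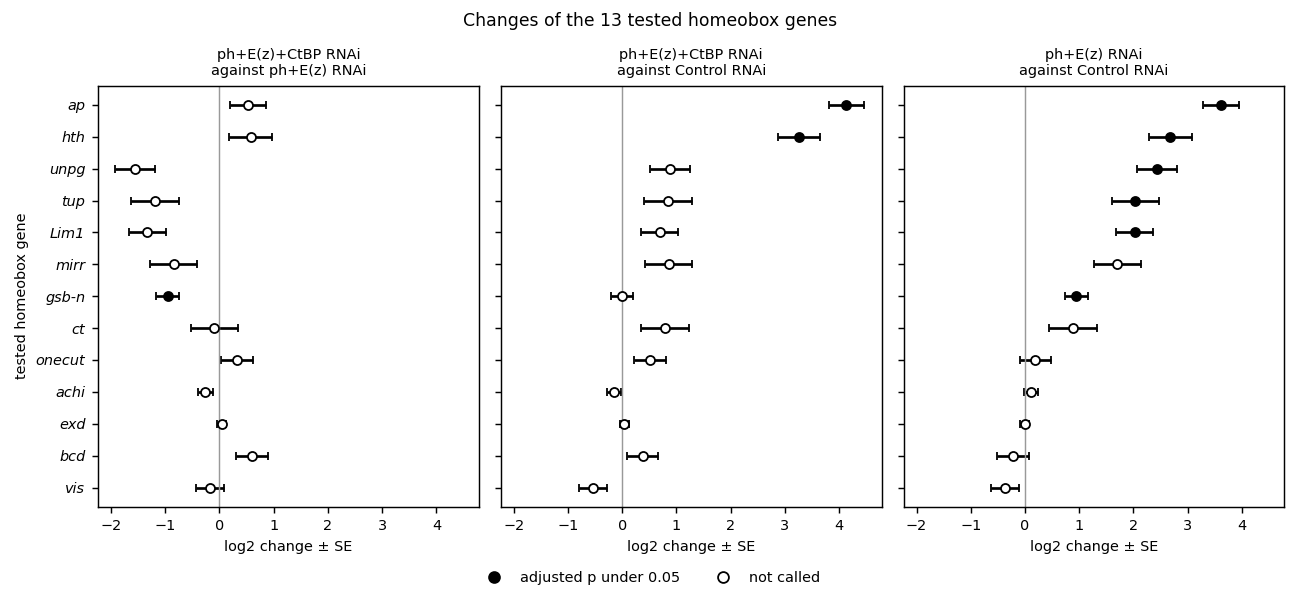
Log2 change on the log2(FPKM + 0.5) scale with its SE for the 13 tested homeobox genes in the 3 comparisons, filled where the limma adjusted p was under 0.05. The genes ap and hth are called in both contrasts with control RNAi, while unpg, tup, Lim1 and gsb-n lie to the right of 0 with ph+E(z) RNAi and to the left of 0 when CtBP RNAi is added.

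Against control RNAi, ph+E(z)+CtBP RNAi left 2 of the 13 tested homeobox genes higher (ap and hth), 0 lower and 11 not called by limma, where 5.58% and 4.15% of all tested genes were called higher and lower. At an unadjusted p under 0.05, 3 were higher and 0 lower. The groups did not overlap in 9 higher and 0 lower genes, where 18.4% and 17.9% of all tested genes did not. Among the 9, ap, unpg, Lim1 and tup were under 0.5 FPKM in all control libraries, and hth and onecut reached it in only 1. The filter thus favoured rises here too, and these counts carry no further weight. This comparison shares its libraries with the 2 above. Here ap was higher by 4.13 ± 0.33 (limma adjusted p = 0.000421) and hth by 3.26 ± 0.39 (limma adjusted p = 0.00253), and both calls held under all 20 alternatives. The ph+E(z)+CtBP libraries lay above all control libraries for unpg, Lim1 and tup too, with differences of 0.88 ± 0.37, 0.69 ± 0.34 and 0.84 ± 0.43 that missed the threshold, at a limma adjusted p of 0.164 for unpg, 0.226 for Lim1 and 0.244 for tup. Leaving out ph+E(z) replicate 1, which enters only the spread, brought unpg (0.0294) and tup (0.0419) past it. Of the 19 alternative settings, unpg passed in 3, tup in 1 and Lim1 in 0. For gsb-n the difference was -0.01 ± 0.21 (limma adjusted p = 0.985), and for mirr 0.85 ± 0.43 (limma adjusted p = 0.236). The difference for vis was -0.54 ± 0.26 (limma adjusted p = 0.217), and it passed at -0.86 ± 0.15 without Control RNAi replicate 1 (0.00778) and at -0.72 with quantile normalization (0.0389). With array weights vis (-0.86, limma adjusted p = 0.00103) and achi (-0.31, limma adjusted p = 0.00788) passed. That setting called 1625 genes higher and 1653 lower.

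The authors' deposited table gives q-values for the first 2 of these comparisons and a status that says whether a gene was tested. For ph+E(z) against control RNAi, 10 of the homeobox genes had status OK in the authors' deposited table and 4 had a q-value under 0.05, all higher, where 5.54% of genes with that status were called higher and 4.01% lower. In the authors' deposited table these were ap, hth and mirr (0.00102 each) and ct (0.0446), while Lim1 (0.139), unpg (0.471) and tup (0.511) were not called and gsb-n was not tested. For ph+E(z)+CtBP against ph+E(z) RNAi, the authors' deposited table had 11 with status OK and 5 under 0.05, where 3.34% were called lower and 4.46% higher. Those lower in the authors' deposited table were Lim1, tup and mirr (0.00102 each) and unpg (0.00191), and hth was higher (0.0356). Limma and the authors' deposited table thus both called ap and hth with ph+E(z) RNAi, and they differed on the other genes named here.

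Many of these genes lie in groups of related neighbours, whose highest values are given side by side, with no test between genes. In the Iroquois complex, 129578 bases of 3L at 12580672 to 12710249 (dm6), mirr was present at up to 33.3 FPKM while ara and caup were silent, with highest values of 0.0415 and 0.270 FPKM. The neighbours gsb-n and gsb, which share 24261 bases of 2R, reached 1.02 and 0.165 FPKM. For en, the selector of posterior compartments, and its paralogue inv, within 53746 bases of 2R, the highest values were 0.197 and 0.597 FPKM. The Bar genes B-H1 and B-H2 on X reached 0.443 and 0.0390 FPKM, and unc-4 and OdsH reached 0.157 and 0.106 FPKM, so that both genes of each pair were silent. The 3 neighbours otp, Rx and hbn on 2R were silent too, at 0.0545 FPKM or less, and the 93D/E cluster, 178206 bases of 3R, held no gene that entered the test. In the achi and vis pair, 7167 bases of 2R, both genes were present, at up to 43.7 and 8.96 FPKM. In the Antennapedia complex, zen reached 0.228 FPKM and zen2 and ftz were listed at 0, and bcd shares its deposited position with zen, so reads of that pair may not be assigned cleanly.

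Genes next to the 6 risen homeobox genes were read beside them. The 12 flanking protein-coding genes lay 6 to 70857 bases away, and 9 of them could be tested. With ph+E(z) RNAi 0 were higher and 0 lower by limma, where 2.58% and 1.34% of all tested genes were, so 0 of 9 shows little. Their log2 changes ran from -0.23 to 1.08, with 1 at an unadjusted p under 0.05. With ph+E(z)+CtBP against ph+E(z) RNAi, 1 was higher and 1 lower, where 1.94% and 1.77% of all tested genes were. CG8026, 3109 bases from unpg, rose by 1.20 (limma adjusted p = 0.0203). CG12075, 32519 bases from Lim1, fell by 0.86 (limma adjusted p = 0.0111). The same genes were called in ph+E(z)+CtBP against control RNAi, where 5.58% and 4.15% of all tested genes were higher and lower. There CG8026 was higher by 0.97 (limma adjusted p = 0.0267) and CG12075 lower by 1.06 (limma adjusted p = 0.00275).

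Among the other homeodomain genes, 39 were in the matrix and 17 were testable. Of the 17, 7 rose, 0 fell and 10 did not pass with ph+E(z) RNAi against control, where 2.58% of all tested genes rose. In ph+E(z)+CtBP RNAi against control 7 rose and 0 fell, where 5.58% of all tested genes rose, and against ph+E(z) RNAi 1 fell, 0 rose and 16 did not pass, where 1.77% fell. At an unadjusted p under 0.05, 11, 12 and 5 of the 17 differed in these 3 comparisons. The HOX genes had 5 testable members of 8, of which all 5 rose with ph+E(z) RNAi and all 5 were also called higher in ph+E(z)+CtBP RNAi against control, while 3 of the 5 fell and 2 did not pass in ph+E(z)+CtBP against ph+E(z) RNAi. The HOX genes Antp, Ubx, abd-A and Abd-B were under 0.5 FPKM in all control libraries, as were oc, ems, nub, pdm2, Optix, HGTX and dve. All of these entered the test only through treated libraries and could not have been called lower against control. The counts of rises in both lists therefore carry no further weight. Genes for protein partners of these factors, the LIM cofactors Chi and Ssdp, the LIM-only gene Bx and the corepressor gene gro, had 0 of 4 called by limma in each of the 3 comparisons, and 0, 1 and 0 at an unadjusted p under 0.05 with ph+E(z) RNAi against control, ph+E(z)+CtBP RNAi against control and ph+E(z)+CtBP against ph+E(z) RNAi. Both Chi and gro were abundant, at 31.9 to 60.9 and 103 to 133 FPKM over the 9 libraries. Of 15 textbook target genes of homeodomain factors 9 were testable. With ph+E(z) RNAi 0 of them were called, where 2.58% of all tested genes were higher and 1.34% lower. At an unadjusted p under 0.05 there were 2, and 3 in each of the other comparisons. The one target called in any comparison was Ser, a Notch ligand gene that ap activates in the wing. It lay at 0.166, 0.132 and 0.549 FPKM with ph+E(z)+CtBP RNAi, against 0.844, 2.09 and 1.91 FPKM in control cells, and fell by 1.41 ± 0.33 (limma adjusted p = 0.0341). That is 1 of 9 targets, where 4.15% of all tested genes were called lower.

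Since several of the risen genes act in neurons, muscle or ectoderm, markers of those cells were read beside them. Of 10 neuron markers 5 were testable and 0 were called by limma in any comparison, also at an unadjusted p under 0.05. Between 1.34% and 5.58% of all tested genes were called in a given direction, so 0 of 5 shows little. The summed level of the neuron markers was 25.8 to 32.2 FPKM with ph+E(z)+CtBP RNAi, 22.6 to 29.5 FPKM with ph+E(z) RNAi and 7.65 to 30.7 FPKM in control cells. The neurotransmitter genes VGlut and Cha stayed at 0.106 FPKM or less in all libraries. Other neuron markers were present in every library, elav at 4.18 to 12.4 FPKM and brp at 2.35 to 14.8 FPKM. Muscle, glia, germline and epithelial markers had 2 of 9, 4 of 6, 3 of 5 and 4 of 4 testable. With ph+E(z) RNAi 0 of them were called, where 2.58% of all tested genes were higher and 1.34% lower. In each list 1 had an unadjusted p under 0.05. In ph+E(z)+CtBP RNAi against control 1 muscle and 1 glia marker were higher, where 5.58% of all tested genes were. Adding CtBP RNAi called 0 in these 4 lists, with 1 muscle and 1 germline marker at an unadjusted p under 0.05. So few genes show little beside such shares. The muscle myosin gene Mhc stayed at 0.342 FPKM or less and the glial determinant gcm at 0.233 FPKM or less. Other markers of those lists were present in every library, Mef2 at 13.4 to 25.3 FPKM and nrv2 at 45.5 to 65.1 FPKM. Of 11 hemocyte markers 2 were higher and 1 lower with ph+E(z) RNAi, where 2.58% and 1.34% of all tested genes were. When CtBP RNAi was added 6 were lower and 0 higher, where 1.77% and 1.94% of all tested genes were. In ph+E(z)+CtBP RNAi against control 5 were lower and 0 higher, where 4.15% and 5.58% of all tested genes were. The summed level of the hemocyte markers was 666 to 700 FPKM with ph+E(z)+CtBP RNAi, 1299 to 1490 FPKM with ph+E(z) RNAi and 749 to 995 FPKM in control cells, and what part these shifts had in the homeobox gene values was not tested. In such bulk RNA a change in the number of cells that make a transcript and a change in RNA per cell cannot be told apart.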

How the data were processed

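RNA was sequenced in 9 libraries, 3 per group. The authors deposited FPKM per gene and library, with their own group means, and depth in reads is unknown. Per the submitters' processing notes, TopHat2 2.1.0, Bowtie2 2.2.6, Cufflinks, Cuffdiff, R 3.2.3 and the dm6 build were used. No source used here gives the scaling between libraries, strandedness or annotation. The authors deposited q-values of their comparisons, copied here as given. Of the deposited positions, 247 carry chromosome names of release 5, so coordinates come from the dm6 annotation, where 47 of the 50 genes were found by FlyBase identifier and 3 (ap, vnd, scro) by symbol.

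A linear model of the 3 groups was fitted to log2(FPKM + 0.5) by limma 3.58.1 (R 4.3.3), its variances moderated along a mean-variance trend, over the 8853 genes with at least 0.5 FPKM in at least 3 libraries. P-values were adjusted by Benjamini-Hochberg over those genes within each comparison, with a threshold of 0.05, and the fit was tested on simulated data. Every homeobox gene on the list is accounted for, and those called are given by library. The members and lists (HOX, other homeodomain, partner, target and marker genes) were chosen with earlier results of these data known. Alternatives changed the pseudocount, filter, scaling, moderation, weights, the groups fitted and the replicate block, and left out each library. Sequences are not shown.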

Additional observations from a re-analysis of the deposited data

How the results depend on the processing

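Among the counts of homeobox genes called with ph+E(z) RNAi against control, 6 higher became 2 with a filter of 1 FPKM, since only 8 of the genes were then tested, and 3 in the fit of the 2 groups compared; it was 2 to 5 without 1 library. The 0 lower became 1 with array weights and 0 to 1 without 1 library. For ph+E(z)+CtBP against control RNAi, the 2 higher were 2 to 4 without 1 library, and the 0 lower became 1 with quantile normalization, 2 with array weights and 0 to 1 without 1 library. For ph+E(z)+CtBP against ph+E(z) RNAi, the 1 lower became 0 with a pseudocount of 0.1, with a filter of 1 FPKM, with quantile normalization and with the replicate block, 6 with array weights, and 0 to 4 without 1 library, and the 0 higher became 1 with array weights. The cause was not tested except for the stricter filter. The 32 silent genes became 12 at a limit of 0.1 FPKM and 38 at 1 FPKM.

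With the replicate number as a block, ap, hth, Lim1 and unpg were called higher with ph+E(z) RNAi, the calls of tup (limma adjusted p = 0.0576) and gsb-n (0.103) were lost there, the call of gsb-n against ph+E(z) RNAi was lost (0.107), and 2 genes stayed higher with ph+E(z)+CtBP RNAi against control. Deviations of same-numbered libraries correlated at -0.137 to 0.197, so the numbers were not taken as pairs. Over all genes, ph+E(z) against control RNAi called 228 higher and 119 lower, 1487 and 1437 with array weights, 147 and 63 in the fit of 2 groups, 160 and 52 with the block, and 87 to 356 and 21 to 246 without 1 library. For ph+E(z)+CtBP against control RNAi 494 and 367 became 1625 and 1653, 238 and 140, 354 and 239, and 178 to 850 and 120 to 691 under the same settings. For ph+E(z)+CtBP against ph+E(z) RNAi 172 and 157 became 1169 and 1227, 413 and 380, 123 and 118, and 41 to 602 and 47 to 589. No change of a tested homeobox gene that was called turned its sign under any alternative run.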
